A study of Mus musculus with 12 samples.

Results

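RNA levels of 10 genes of the cAMP-to-CREB transcription pathway were followed in sorted mouse follicular B cells. The genes were chosen by symbol, as the rows named *Crem*, *Creb1*, *Atf1*, *Crtc1*, *Crtc2*, *Crtc3*, *Sik1*, *Sik3*, *Crebbp* and *Ep300*. All 10 were found among the 13269 genes counted at 0 h and the 13142 counted at 4 h, and all 10 passed the filter on low counts in every comparison. The cells came from the spleens of adult male mice, were labelled CD21/35- CD23+, and were either Gpr174+/Y (WT) or Gpr174-/Y (KO). KO mice carry a tdTomato reporter at the locus instead of the receptor's coding sequence. GPR174 is a receptor for lysophosphatidylserine that couples to the stimulatory G protein Gαs. The RNA was taken either from freshly sorted cells (0 h) or from cells kept for 4 h in complete RPMI medium with serum, with no added stimulus. Each combination of genotype and time (WT 0 h, WT 4 h, KO 0 h, KO 4 h) had 3 libraries. The mice numbered 3 per genotype, so the libraries of a group came from separate mice. If these 3 mice cover both times, libraries of 0 h and 4 h share mice. The labels do not state whether equal numbers mark the same mouse, and the tests below treat the libraries as unpaired. A fit with the number as a block is given where it changed a call in culture or in the interaction.

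In this pathway cAMP activates protein kinase A, which phosphorylates the transcription factor CREB (gene *Creb1*) and its relatives ATF1 and CREM. The phosphorylated factors recruit the acetyltransferases CBP (*Crebbp*) and p300 (*Ep300*) at cAMP response elements. CRTC coactivators (*Crtc1* to *Crtc3*) stay in the cytoplasm while salt-inducible kinases (SIKs) phosphorylate them, and enter the nucleus when cAMP signaling inhibits SIKs or when calcineurin removes the phosphate. *Crem* and *Sik1* are themselves textbook CREB target genes. An internal *Crem* promoter makes the short repressor ICER, and SIK1 acts back on the CRTCs.

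The libraries held 6098941 to 11618787 counts. Levels are given in CPM (counts scaled to a common library total) on library sizes scaled by TMM, which corrects for differences in library composition. *Gpr174*, the targeted gene, was at 149.5 to 157 CPM in WT and 73.4 to 76.7 CPM in KO libraries of 0 h, and at 153 to 169 and 105 to 118 CPM after culture. The genotypes did not overlap at either time. The count covers the whole gene, so reads from untranslated sequence that the KO allele may keep could not be set apart. Of 10 B cell markers 9 had rows in both tables (*Ighd* had none), and their summed level was 8705 to 9476 CPM at 0 h. *Fcer2a*, which encodes CD23, was at 1532 ± 46.6 CPM and *Cr2*, which encodes CD21/35, the label's negative marker, at 1070.1 ± 45.7 CPM in freshly sorted WT cells (SD, n = 3). Summed markers of T cells (4 of 8 with rows) lay between 3.03 and 10.6 CPM, of NK cells (4 of 6) between 2.26 and 12.1, of myeloid cells (8 of 12) between 48.9 and 160.3, and of erythroid cells and platelets (3 of 8) between 41.6 and 129. Among the markers without rows were *Cd3g*, *Cd8a*, *Ncr1*, *C1qa* and *Hba-a1*. After culture the summed B cell markers were at 6378 to 6650 CPM in WT and 7706 to 7949 in KO, and 6 marginal zone B cell markers, *Cr2* among them, at 243 to 288 CPM in WT and 381 to 428 in KO. At 0 h the marginal zone sum was at 1222 to 1300 CPM in WT and 1072 to 1255 in KO, so it fell in culture in both genotypes. Summed plasma cell markers (5 of 5) were at 519 to 571 CPM in WT and 443 to 478 in KO after culture, and at 433 to 495 at 0 h. The ribosomal RNA row *Rn45s* took 7.78% to 11.2% of counts in WT and 6.65% to 7.59% in KO at 4 h, and 9.23% to 11.3% at 0 h. At 4 h the B cell, marginal zone and plasma cell sums and *Rn45s* did not overlap between genotypes. The sums for T cells, NK cells, myeloid cells and erythroid cells with platelets did overlap. The part of these values in the results below was not tested.

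*Crem* and *Sik1* set the genotypes apart after culture. Neither was called different between WT and KO at 0 h. In WT cells both rose over 4 h, *Crem* 8.27-fold and *Sik1* 1.66-fold. In KO cells *Crem* was not called changed and *Sik1* fell to 0.351 of its 0 h level. *Creb1* and *Atf1*, the other CREB family genes, fell in cultured WT cells and were not called changed in cultured KO cells. In bulk RNA, fewer cells that express a gene and less RNA per cell cannot be told apart.

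**Figure D1:**
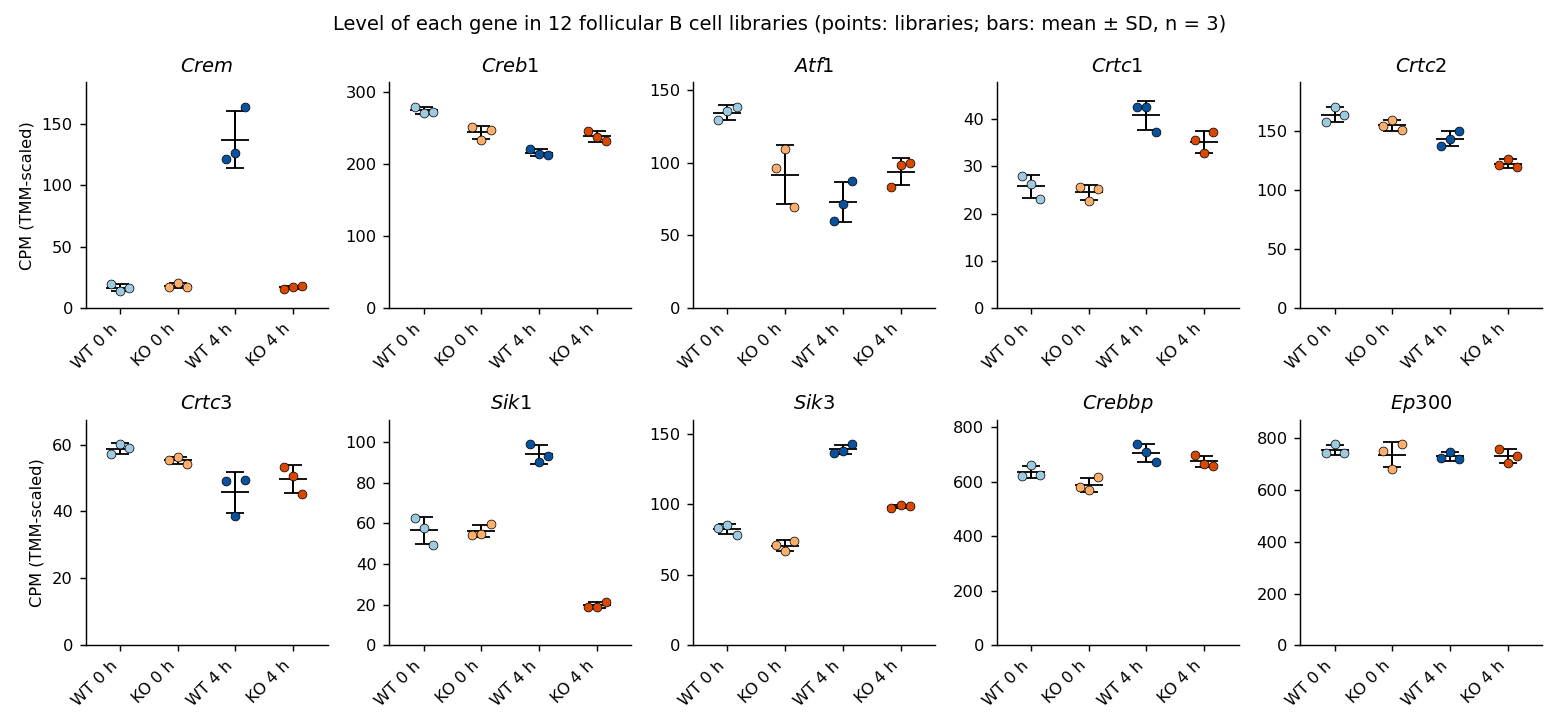
Level of the 10 genes in each library, in TMM-scaled CPM on a linear axis from 0, with a panel for each gene and the 4 groups side by side. Points are libraries and bars the mean ± SD (n = 3). *Crem* stands apart in WT 4 h (121 to 164 CPM, against 14.01 to 20.4 elsewhere) and *Sik1* in KO 4 h (18.9 to 21.3 CPM, against 49.6 to 99.1 elsewhere).

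Differences were tested with edgeR's quasi-likelihood test over all genes, and a gene was called at a Benjamini-Hochberg adjusted p under 0.05. A genotype contrast is the log2 fold change of WT over KO, a culture change that of 4 h over 0 h, and the interaction is how much the culture change in WT exceeded that in KO. At 0 h, 1 of the 10 genes was called, *Atf1*, higher in WT. Of the 11345 genes tested there 0.987% were called, 0.502% higher and 0.485% lower in WT. At 4 h, 4 of 10 were called, all higher in WT (*Crem*, *Sik1*, *Sik3* and *Crtc2*), where 10.9% of 11123 genes were called, 5.22% higher and 5.67% lower. The median log2 fold change of the 10 genes at 4 h was 0.14, against 0.0048 over all genes. Culture changed 9 of 10 genes in WT, 5 upward and 4 downward, where 33.1% of 11572 genes were called, 15.1% upward and 18% downward. In KO it changed 5 of 10, 3 upward and 2 downward, where 23.3% were called, 10.3% upward and 13% downward. The interaction was called for 4 of 10, positive for *Crem* and *Sik1* and negative for *Creb1* and *Atf1*, where 6.39% of genes were called, 2.45% positive and 3.94% negative. The contrasts share libraries, so these counts are not independent of each other. On library totals without composition scaling the called genes split as 3001 upward and 1500 downward in WT culture, against 1750 and 2080, and as 2168 and 1101 in KO, against 1193 and 1504. The median culture change of all genes was then 0.11 in WT and 0.092 in KO. At 0 h the split was 37 higher and 68 lower on library totals and 61 and 36 in the fit of 12 libraries, against 57 and 55.

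**Figure D2:**
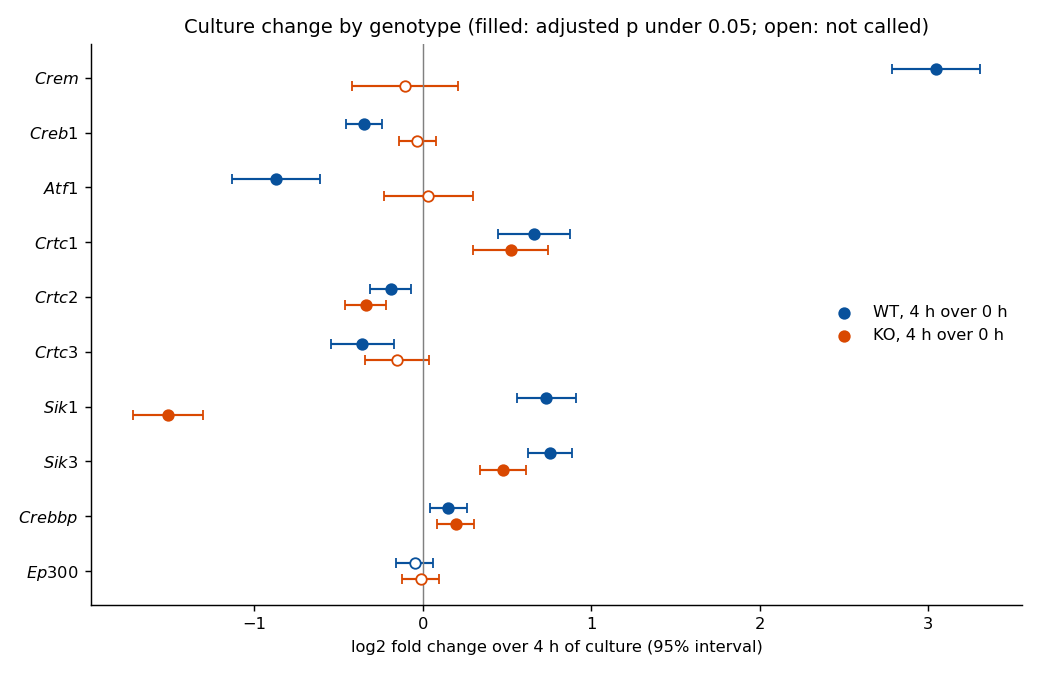
Culture change of the 10 genes in WT and KO, as log2 fold change of 4 h over 0 h with its 95% interval from the edgeR fit of 12 libraries. Filled points passed the adjusted p threshold and open points did not. The *Sik1* points lie on opposite sides of 0, at 0.73 in WT and -1.51 in KO, and *Crem* is at 3.05 in WT and -0.11 in KO.

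*Crem*, the cAMP response element modulator, encodes both activators and repressors. The gene lies on the minus strand of chromosome 18 from 3266048 to 3337748 (GRCm38/mm10, GENCODE M21). In WT cells *Crem* was at 19.4, 14.01 and 16.5 CPM in replicates 1 to 3 of 0 h and at 121, 126 and 164 CPM at 4 h. KO libraries had 16.9, 20.4 and 16.8 CPM at 0 h and 15.1, 16.9 and 18.2 CPM at 4 h. The WT 4 h libraries lay far above the other 9, whose groups overlapped. By mean the highest group was WT 4 h (137 ± 23.4 CPM), then KO 0 h (18.1 ± 2.07), KO 4 h (16.7 ± 1.54) and WT 0 h (16.6 ± 2.68, SD, n = 3), and the last 3 did not differ beyond their spread. The genotype contrast at 4 h was 3.04 ± 0.12 (SE), a fold of 8.22 (edgeR adjusted p = 3.37e-10), and at 0 h it was -0.12 (95% interval -0.45 to 0.20). Culture changed the gene by 3.05 ± 0.13 in WT (edgeR adjusted p = 5.75e-14), and in KO the value was -0.11 ± 0.15 (95% interval -0.42 to 0.21, edgeR adjusted p = 0.676). The interaction was 3.15 ± 0.20 (edgeR adjusted p = 6.83e-10).

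The counts are per gene and GENCODE lists 39 *Crem* transcripts, so activator forms and ICER could not be separated. *Gm6225*, an opposite-strand transcript, overlaps the 5′ end of *Crem*, and the strand setting of the counting is not given in the sources used here. Its own row stayed low, with group means of 5.25 to 6.59 CPM and 5.30 ± 1.62 in WT 4 h (SD, n = 3).

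*Creb1*, which encodes CREB itself (chromosome 1, 64532645 to 64604548, plus strand), changed less. In WT cells *Creb1* was at 279, 270.4 and 272 CPM at 0 h and 221, 214 and 212 at 4 h. KO libraries of *Creb1* had 251, 233 and 246 CPM at 0 h and 246, 237 and 231 at 4 h. All WT 0 h libraries lay above and all WT 4 h libraries below the 6 KO libraries. Culture lowered it in WT by 0.35 on the log2 scale (edgeR adjusted p = 2.15e-05), and the KO value was -0.032 ± 0.05 (SE, edgeR adjusted p = 0.721). The interaction was -0.32 ± 0.07 (edgeR adjusted p = 0.0103). The genotype contrasts had opposite signs, 0.16 at 0 h (95% interval 0.05 to 0.27) and -0.15 at 4 h (95% interval -0.27 to -0.03), and neither was called, with edgeR adjusted p-values of 0.17 and 0.124.

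*Atf1* encodes a close relative of CREB and lies on chromosome 15 from 100227819 to 100261244 (plus strand). In WT cells *Atf1* was at 129, 136 and 139 CPM at 0 h and 59.9, 71.3 and 87.1 at 4 h. KO libraries of *Atf1* had 96.2, 109 and 69.8 CPM at 0 h and 83.0, 98.5 and 99.8 at 4 h. WT lay above KO in every library at 0 h, and at 4 h the groups overlapped with the lower mean in WT. *Atf1* fell in cultured WT cells, with a log2 fold change of -0.87 ± 0.13 (SE, edgeR adjusted p = 1.24e-05), and the KO value was 0.033 ± 0.13 (95% interval -0.23 to 0.30). The interaction was -0.91 ± 0.18 (edgeR adjusted p = 0.00216). The genotype contrast was 0.54 ± 0.11 at 0 h (edgeR adjusted p = 0.0286) and -0.35 ± 0.11 at 4 h (edgeR adjusted p = 0.0552). The 0 h call was lost without WT 0 h replicate 2 (edgeR adjusted p = 0.106), WT 0 h replicate 3 (0.121) or KO 0 h replicate 1 (0.0812), and with DESeq2 (adjusted p = 0.133). At 4 h the gene was called without WT 4 h replicate 3 (edgeR adjusted p = 0.00554) or KO 4 h replicate 1 (0.041), and with DESeq2 (adjusted p = 0.0338).

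Levels of different genes were compared per length, as CPM per kb of annotated exon. In freshly sorted WT cells *Atf1* was at 43.9 CPM per kb, *Creb1* at 19.9 and *Crem* at 2.82. *Crem* had the lowest mean of the 3 in each group except WT 4 h, where *Crem* (23.2 ± 3.97 CPM per kb, SD, n = 3) and *Atf1* (23.8 ± 4.47) overlapped and *Creb1* was at 15.7. That closeness depended on the length used: on the longest transcript *Crem* (46.7 ± 7.99) lay above *Atf1* (30.8 ± 5.79) in all WT 4 h libraries. The *Crem* share of the summed CPM per kb of the 3 genes was 4.24% ± 0.714 and 6.06% ± 0.546 at 0 h in WT and KO, and 37.0% ± 1.70 and 5.58% ± 0.262 at 4 h (SD, n = 3). The *Atf1* share went from 65.9% ± 1.53 to 37.7% ± 2.59 in WT and from 58.6% ± 5.74 to 60.2% ± 2.79 in KO. The *Crem* share did not overlap between genotypes at either time, with WT lower at 0 h and higher at 4 h (two-sided exact permutation p = 0.1 each, the smallest that 3 against 3 allows). At 0 h the *Crem* level itself overlapped, with means of 2.82 CPM per kb in WT and 3.06 in KO. *Atf1* was then at 43.9 in WT and 30.0 in KO, and *Creb1* at 19.9 and 17.7, so the 0 h share also reflects those genes. On the length of the longest transcript in place of all exons the *Crem* share was 45.1% in WT 4 h and 7.73% in KO 4 h.

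**Figure D3:**
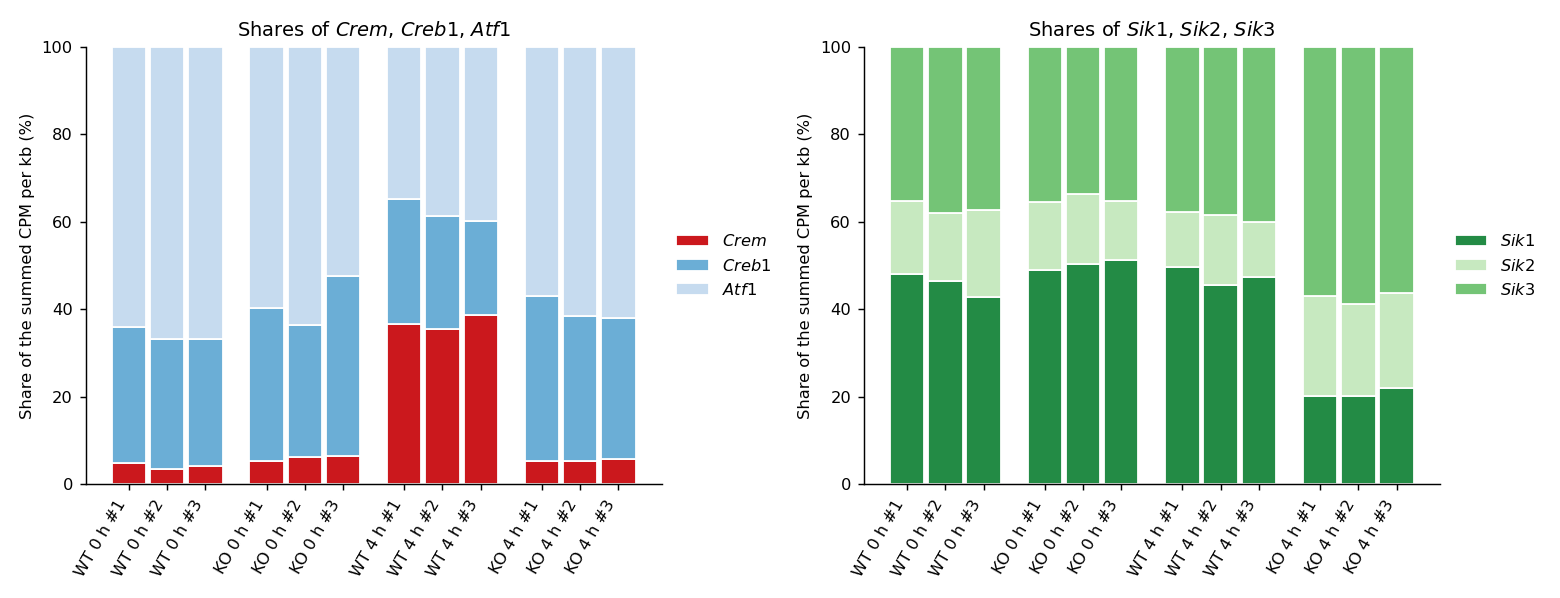
Shares of the summed level of *Crem*, *Creb1* and *Atf1* and of *Sik1*, *Sik2* and *Sik3*, from CPM per kb of exon, with a stacked bar for each library that sums to 100%. In WT 4 h *Crem* takes 35.4% to 38.8%, against 3.58% to 6.53% elsewhere, and in KO 4 h *Sik1* takes 20.2% to 22.1%, against 42.8% to 51.2% elsewhere.

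*Sik1* encodes the salt-inducible kinase whose transcript is itself induced by cAMP, and lies on chromosome 17 from 31844250 to 31855804 (minus strand). In WT cells *Sik1* was at 62.7, 57.8 and 49.6 CPM at 0 h and 99.1, 89.9 and 93.1 at 4 h. KO libraries of *Sik1* had 54.3, 55.0 and 59.4 CPM at 0 h and 19.1, 18.9 and 21.3 at 4 h. The groups overlapped at 0 h, and after culture the WT libraries lay above and the KO libraries below all 0 h libraries. The genotype contrast at 4 h was 2.25 ± 0.09 (SE), a fold of 4.76 (edgeR adjusted p = 3.37e-10), and at 0 h it was 0.00047 (95% interval -0.20 to 0.20). The culture change was 0.73 ± 0.08 in WT (edgeR adjusted p = 5.76e-07) and -1.51 ± 0.10 in KO (edgeR adjusted p = 3.7e-10), and the interaction 2.24 ± 0.13 (edgeR adjusted p = 2.76e-10). Among the 10 genes *Sik1* was the one called in opposite directions in the cultures of the genotypes.

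*Sik3* encodes a broadly expressed SIK and lies on chromosome 9 from 46012820 to 46224194 (plus strand). In WT cells *Sik3* was at 83.5, 85.7 and 78.3 CPM at 0 h and 137, 138 and 143 at 4 h. KO libraries of *Sik3* had 71.4, 66.8 and 74.3 CPM at 0 h and 97.2, 99.7 and 98.8 at 4 h. WT libraries lay above KO libraries at both times, and culture raised the gene in both genotypes. The culture change was 0.76 ± 0.06 (SE) in WT (edgeR adjusted p = 4.2e-09) and 0.48 ± 0.07 in KO (edgeR adjusted p = 1.24e-05). The interaction, 0.28 ± 0.09, missed the threshold (95% interval 0.09 to 0.47, edgeR adjusted p = 0.0745). The genotype contrast was 0.50 ± 0.06 at 4 h (edgeR adjusted p = 3.83e-05) and 0.21 ± 0.07 at 0 h (edgeR adjusted p = 0.211).

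*Sik2*, the remaining SIK gene, completes the family. Its mean was 40.0 ± 3.66 CPM in WT and 31.2 ± 1.90 in KO at 0 h, and 50.1 ± 7.96 and 38.3 ± 1.76 at 4 h (SD, n = 3). Per kb of exon, *Sik1* and *Sik3* were at 11.05 and 8.86 CPM in WT 0 h and *Sik2* at 4.19. In KO 4 h *Sik1* (3.85 ± 0.265 CPM per kb) and *Sik2* (4.02 ± 0.184, SD, n = 3) overlapped, and *Sik3* was at 10.6. On the longest transcript they did not overlap, with *Sik1* at 4.37 ± 0.301 and *Sik2* at 7.14 ± 0.327 CPM per kb. The *Sik1* share of the SIK sum went from 45.7% ± 2.70 to 47.6% ± 2.12 in WT and from 50.2% ± 1.121 to 20.9% ± 1.03 in KO, and the *Sik3* share in KO from 34.8% ± 0.991 to 57.4% ± 1.33 (SD, n = 3). At 4 h the *Sik1* share was 26.7 percentage points higher in WT, with no overlap of libraries (two-sided exact permutation p = 0.1, the smallest possible). The *Sik1* share at 4 h was 39.8% in WT and 16.1% in KO on the longest transcript, and 33.2% and 12.6% without length scaling.

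The cAMP response element TGACGTCA and its core TGACG, which the full element contains, were searched on either strand in the 250 bases upstream of RefSeq gene starts (GRCm38.p6). Windows of 7 of the 10 genes were searched. *Crem*, *Crtc2* and *Sik1* were not among them, so the search says nothing about the elements of those genes. By the GENCODE annotation the windows of *Ep300* and *Crebbp* lay wholly inside the gene, and 91 of the 250 bases of the *Creb1* window lay before it. Of the 7, 0 held the full element, which 1.55% of 32851 windows of this length hold. The core was in 2 of the 7, *Sik3* and *Atf1*, against 17.8% of all windows. Both windows are shown because these genes changed in opposite directions in cultured WT cells. The core is in capitals, and begins 133, 116 and 57 bases before the start in *Sik3* and 90 bases before it in *Atf1*, whose window is shown up to the first exon base of the GENCODE annotation. A match is a description of the letters and not of binding.
Sik3, chr9:46012570-46012819, plus strand: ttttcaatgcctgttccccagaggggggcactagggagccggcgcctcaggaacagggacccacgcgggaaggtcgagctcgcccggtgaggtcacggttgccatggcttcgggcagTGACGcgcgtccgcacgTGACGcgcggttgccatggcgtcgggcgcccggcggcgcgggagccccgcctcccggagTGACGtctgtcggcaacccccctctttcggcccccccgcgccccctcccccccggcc
Atf1, chr15:100227609-100227818, plus strand: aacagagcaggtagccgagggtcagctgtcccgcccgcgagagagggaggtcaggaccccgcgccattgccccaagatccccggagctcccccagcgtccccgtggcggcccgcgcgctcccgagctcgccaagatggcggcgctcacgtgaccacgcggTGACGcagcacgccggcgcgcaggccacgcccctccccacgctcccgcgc

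The CRTC genes encode the coactivators that SIKs restrain. *Crtc2* was the highest of the 3 per length in every group, at 40.0 CPM per kb in WT 0 h against 5.97 for *Crtc3* and 2.31 for *Crtc1*. *Crtc1* (chromosome 8, 70382355 to 70439579, minus strand) rose in both genotypes. In WT cells *Crtc1* was at 28.05, 26.2 and 23.1 CPM at 0 h and 42.6, 42.7 and 37.2 at 4 h. KO libraries of *Crtc1* had 25.7, 22.7 and 25.2 CPM at 0 h and 35.7, 32.7 and 37.4 at 4 h. The times did not overlap and the genotypes did. Its culture change was 0.66 ± 0.10 (SE) in WT (edgeR adjusted p = 3.52e-05) and 0.52 ± 0.11 in KO (edgeR adjusted p = 0.00103), with an interaction of 0.14 (95% interval -0.17 to 0.45).

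*Crtc2* (chromosome 3, 90254163 to 90264125, plus strand) moved downward. In WT cells *Crtc2* was at 158, 171 and 164 CPM at 0 h and 137, 143 and 150.2 at 4 h. KO libraries of *Crtc2* had 154, 159.7 and 151 CPM at 0 h and 121, 126 and 119 at 4 h. The genotypes overlapped at 0 h and did not at 4 h. It fell by 0.34 on the log2 scale in KO (edgeR adjusted p = 0.000205) and by 0.19 in WT (edgeR adjusted p = 0.0152), and the interaction was 0.15 (95% interval -0.02 to 0.32). The WT call was lost without WT 0 h replicate 2 (edgeR adjusted p = 0.0646) or WT 4 h replicate 1 (0.0659), and on library totals (0.321). The 4 h genotype contrast was 0.23 ± 0.06 (SE, edgeR adjusted p = 0.0235). That call was lost without WT 4 h replicate 3 (edgeR adjusted p = 0.108), without KO 4 h replicate 1 (0.0949), 2 (0.0511) or 3 (0.103), and on library totals (0.0544).

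*Crtc3* (chromosome 7, 80586627 to 80688877, minus strand) fell in WT. In WT cells *Crtc3* was at 57.1, 60.2 and 59.0 CPM at 0 h and 49.1, 38.6 and 49.4 at 4 h. KO libraries of *Crtc3* had 55.5, 56.3 and 54.2 CPM at 0 h and 53.2, 50.7 and 45.3 at 4 h. WT libraries of 4 h lay below all 0 h libraries, and the genotypes overlapped at 4 h. The fall in WT was by 0.36 on the log2 scale (edgeR adjusted p = 0.00398). The KO value of -0.15 (95% interval -0.34 to 0.04) and the interaction of -0.21 (95% interval -0.47 to 0.06) were not called. *Gm15880*, an opposite-strand transcript inside *Crtc3*, had a row of its own, with 17.3 ± 2.98 CPM in WT and 15.6 ± 0.965 in KO at 0 h and 11.1 ± 2.47 and 25.6 ± 2.98 at 4 h (SD, n = 3). If the counting ignored strand, its reads could not be told from those of *Crtc3*.

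*Crebbp* and *Ep300*, the acetyltransferase coactivators, had the highest counts of the 10 genes. In WT cells *Crebbp* (chromosome 16, 4081328 to 4213997, minus strand) was at 619.8, 659 and 625 CPM at 0 h and 738, 707 and 672 at 4 h. KO libraries of *Crebbp* had 578, 569 and 617 CPM at 0 h and 697, 666 and 658 at 4 h. The genotypes overlapped at 4 h, where the contrast was 0.067 (95% interval -0.06 to 0.19). *Crebbp* rose slightly in both genotypes, with a log2 fold change of 0.15 in WT (edgeR adjusted p = 0.0302) and 0.20 in KO (edgeR adjusted p = 0.00942) and an interaction of -0.043 (95% interval -0.20 to 0.11). The WT call was lost without WT 0 h replicate 1 or 3 or WT 4 h replicate 1 or 2, with edgeR adjusted p-values of 0.0547 to 0.101, and in the fit of the 6 WT libraries alone (0.0709). The KO call was lost without replicate 1 of KO 0 h (edgeR adjusted p = 0.0533) or of KO 4 h (0.0509).

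*Ep300* (chromosome 15, 81585351 to 81652077, plus strand) was called in none of the 5 comparisons, by edgeR or DESeq2. Its WT libraries ran from 743 to 778 CPM at 0 h and from 719 to 749 at 4 h. The KO libraries ran from 682 to 779 and from 705 to 758 CPM, so the groups overlapped. The 95% intervals of its log2 fold changes were -0.12 to 0.12 for genotype at 4 h and -0.19 to 0.12 for the interaction. Per kb of exon *Crebbp* made up 47.0% ± 0.199 of the sum with *Ep300* in WT 0 h and 50.4% ± 1.18 in WT 4 h (SD, n = 3), and 45.7% ± 1.01 and 49.3% ± 0.619 in KO.

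Other genes of the pathway were counted in lists, and those named beyond the rule for named genes were named after their values were seen. Of 16 other CREB/ATF genes, edgeR and DESeq2 called 0 of 11 in the 0 h genotype contrast, 0 of 10 at 4 h and 0 of 11 in the interaction. With an unadjusted edgeR p under 0.05 there were 0, 3 and 2. The list's median log2 fold change at 4 h was 0.0096, against 0.0048 over all genes. *Atf4*, the integrated stress response factor, and *Atf6*, an endoplasmic reticulum stress sensor, fell in both genotypes in culture, by 0.19 and 0.29 on the log2 scale in WT and by 0.20 and 0.27 in KO. In KO *Creb3* also fell, by 0.48, and *Atf2* rose by 0.18. These were all the culture calls of the list, 2 of 11 in WT (33.1% of all genes) and 4 of 11 in KO (23.3% of all genes). The *Atf4* call was lost in WT without WT 4 h replicate 2 (edgeR adjusted p = 0.0731), in KO without KO 0 h replicate 1 or 3 or KO 4 h replicate 2 (0.061 to 0.0713), and in both on library totals (0.27 and 0.16). The *Atf2* call was lost without any KO 0 h library or KO 4 h replicate 1 (edgeR adjusted p = 0.0615 to 0.178).

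The list of *Sik2*, the LKB1 complex and the AMPK-related kinases held 21 genes. At 4 h 3 of 18 were called (10.9% of all genes), all higher in WT: *Prkag1*, a regulatory subunit of AMPK (log2 fold change 0.34), *Nuak2*, an AMPK-related kinase (0.27), and *Sik2* (0.38), with edgeR adjusted p-values of 0.0225, 0.0262 and 0.0333. The list's median was 0.07. *Prkag1* lost its call without WT 4 h replicate 1 or 3 or KO 4 h replicate 1 or 3 (edgeR adjusted p = 0.0548 to 0.11). *Nuak2* lost it without WT 4 h replicate 3 or any KO 4 h library (edgeR adjusted p = 0.066 to 0.134), and *Sik2* without WT 4 h replicate 2 or any KO 4 h library (0.0793 to 0.134). On library totals both were lost (0.0572 and 0.0562 by edgeR). EdgeR and DESeq2 called 0 of 17 at 0 h and 0 of 18 in the interaction, with 1 and 3 at an unadjusted edgeR p under 0.05. The interaction of *Prkag1*, 0.44, was called with a replicate block (edgeR adjusted p = 0.041, against 0.0635), and without WT 0 h replicate 3 (0.0224) or KO 4 h replicate 2 (0.048). Culture called 4 of 18 in WT, all upward, and 4 in KO, 3 upward and 1 downward, against 33.1% and 23.3% of all genes. *Stk11*, which encodes LKB1, the kinase that activates SIKs, rose by a log2 fold change of 0.38 in WT and 0.29 in KO. *Nuak1* rose by 1.69 and 1.27 at a very low level. Its means were 0.621 CPM in WT and 0.764 in KO at 0 h, and 2.04 and 1.87 at 4 h. The *Nuak1* call in KO was lost with DESeq2 (adjusted p = 0.1), with a replicate block (edgeR adjusted p = 0.0676), without the filter on low counts (0.0519) and without any 1 library other than those of WT 0 h (edgeR adjusted p = 0.0506 to 0.154). *Prkag1* and *Sik2* rose in WT by 0.32 and 0.32, and lost the call without WT 0 h replicate 1 (edgeR adjusted p = 0.0655) and without replicate 2 of WT 0 h (0.106) or of WT 4 h (0.19), respectively. The *Sik2* call in WT was also lost in the fit of the 6 WT libraries alone (0.0569 by edgeR). In KO the *Sik2* value was 0.30 (95% interval 0.06 to 0.53), which missed the threshold (edgeR adjusted p = 0.0588) and passed it on library totals (0.0164), in the fit of the 6 KO libraries (0.0188) and without replicate 2 of WT 0 h (0.0499) or of WT 4 h (0.0296). In KO *Prkab2* rose by 0.31 and *Nuak2* fell by 0.30, and the *Prkab2* call was lost without KO 0 h replicate 1 or 3 or KO 4 h replicate 1 or 2 (edgeR adjusted p = 0.0589 to 0.126).

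Of 27 kinases, phosphatases and Ywha adaptor proteins that act on CREB or the CRTCs, 3 were called at 4 h, all lower in WT, where 10.9% of all genes were called, and the list's median was -0.06. They were *Rps6ka5*, which encodes the CREB kinase MSK1 (log2 fold change -0.44), *Ppp3cc*, a catalytic subunit of calcineurin (-0.23), and *Camk2d*, a calmodulin-dependent kinase (-0.22). *Ppp3cc* lost its call with DESeq2 (adjusted p = 0.0551), without the filter on low counts (edgeR adjusted p = 0.0513) and without any 4 h library but WT replicate 2 (edgeR adjusted p = 0.0649 to 0.198). *Camk2d* lost it without WT 4 h replicate 1 or 3 or KO 4 h replicate 1 or 3 (edgeR adjusted p = 0.0649 to 0.156). The interaction was called for 2 of 27, both negative (6.39% of all genes). *Rps6ka5* was at 53.6 ± 5.604 CPM in WT and 48.9 ± 2.56 in KO at 0 h, and at 45.9 ± 6.09 and 62.0 ± 4.41 CPM at 4 h (SD, n = 3), with an interaction of -0.57 (edgeR adjusted p = 0.0136). Without WT 4 h replicate 3 or KO 4 h replicate 1 its calls were lost at 4 h (edgeR adjusted p = 0.0527 to 0.0547) and in the interaction (0.05 to 0.0529). *Ppp3r1*, the regulatory subunit of calcineurin, fell in cultured WT cells by 0.50 on the log2 scale, with -0.032 in KO and an interaction of -0.47 (edgeR adjusted p = 0.00757). At 0 h edgeR and DESeq2 called 0 of 27, with 6 at an unadjusted edgeR p under 0.05. Culture called 7 of 27 in WT, all downward, and 5 in KO, against 33.1% and 23.3% of all genes. The WT value of *Rps6ka5*, -0.23, was called with a replicate block (edgeR adjusted p = 0.0475, against 0.0794), and without WT 0 h replicate 1 (0.028) or WT 4 h replicate 2 (0.0193). The KO calls were falls of *Rps6ka1* (-0.56), *Rps6ka4* (-1.38), *Camk2d* (-0.32) and *Ywhah* (-0.42) and a rise of *Rps6ka5* (0.34). The *Rps6ka5* rise lost its call without KO 0 h replicate 2 or KO 4 h replicate 1 (edgeR adjusted p = 0.0651 to 0.0769), and *Ywhah* without KO 4 h replicate 1 (0.0867).

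Of 16 other acetyltransferases, p160 coactivators and partners of CBP, p300 or the CRTCs, 14 were tested. EdgeR and DESeq2 called 0 of 14 at 4 h and 0 of 14 in the interaction, with 2 and 3 at an unadjusted edgeR p under 0.05. Culture called 5 in WT, 3 upward and 2 downward, and 5 in KO, 2 upward and 3 downward, against 33.1% and 23.3% of all genes. At 0 h 1 of 14 was called (0.987% of all genes), *Cited2*, which encodes a CBP and p300 binding protein, at 45.01 ± 2.89 CPM in WT and 32.6 ± 1.96 in KO (SD, n = 3). The contrast of *Cited2* was 0.46 (edgeR adjusted p = 0.0331). It lost that call without any 1 of the 0 h libraries except KO replicate 2, with edgeR adjusted p-values of 0.0551 to 0.274.

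Of 32 genes known as cAMP- or CREB-induced, with *Crem* and *Sik1* left out, 28 were tested at 4 h and 18 were called (10.9% of all genes), 16 higher and 2 lower in WT (*Egr1*, -0.41, and *Bcl2*, -0.57). *Egr1* lost its call without WT 4 h replicate 2 or 3 or KO 4 h replicate 2 or 3 (edgeR adjusted p = 0.0537 to 0.162). The median log2 fold change was 0.62, against 0.0048 over all genes. This list was chosen with earlier results of these data known. It holds genes that the authors reported from these data as higher in cultured WT cells, among them *Pde3b*, *Pde4b*, *Pde4d*, *Junb* and *Ier2*. Its counts and median are therefore a description and not independent support. The interaction was called for 10 of 27 (6.39% of all genes), 9 positive and 1 negative (*Bcl2*, -0.56). At 0 h edgeR and DESeq2 called 0 of 25, with 3 at an unadjusted edgeR p under 0.05. In culture 21 of 27 were called in WT, 12 upward and 9 downward, and 16 in KO, 5 upward and 11 downward, against 33.1% and 23.3% of all genes. The KO rises were *Nr4a1* (0.50), *Nr4a3* (2.13), *Fosl2* (1.62), *Pde4b* (0.61) and *Pde3b* (1.78).

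The 6 of these genes with the smallest interaction p were *Pde3b*, *Pde4d*, *Ier2*, *Per1*, *Junb* and *Pde4b*. *Pde4d*, a cAMP phosphodiesterase, had means of 10.2 ± 0.424 CPM in WT and 11.4 ± 1.24 in KO at 0 h, and 52.0 ± 6.90 and 13.8 ± 2.79 at 4 h (SD, n = 3). Like *Crem* it rose in WT and was not called changed in KO (0.27), with an interaction of 2.09 (edgeR adjusted p = 1.14e-06). *Pde3b* and *Pde4b*, which also degrade cAMP, rose in both genotypes, with positive interactions of 1.41 and 0.41. *Ier2* and *Junb*, immediate early genes, fell in KO by 1.15 and 0.93 on the log2 scale. In WT *Ier2* fell by 0.32 and the value for *Junb* was 0.0053. The WT call of *Ier2* was lost without WT 0 h replicate 1 (edgeR adjusted p = 0.105) or WT 4 h replicate 2 (0.0931), and on library totals (0.0838). *Per1*, a clock gene, rose in WT by 0.41, with -0.17 in KO that was not called.

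**Figure D4:**
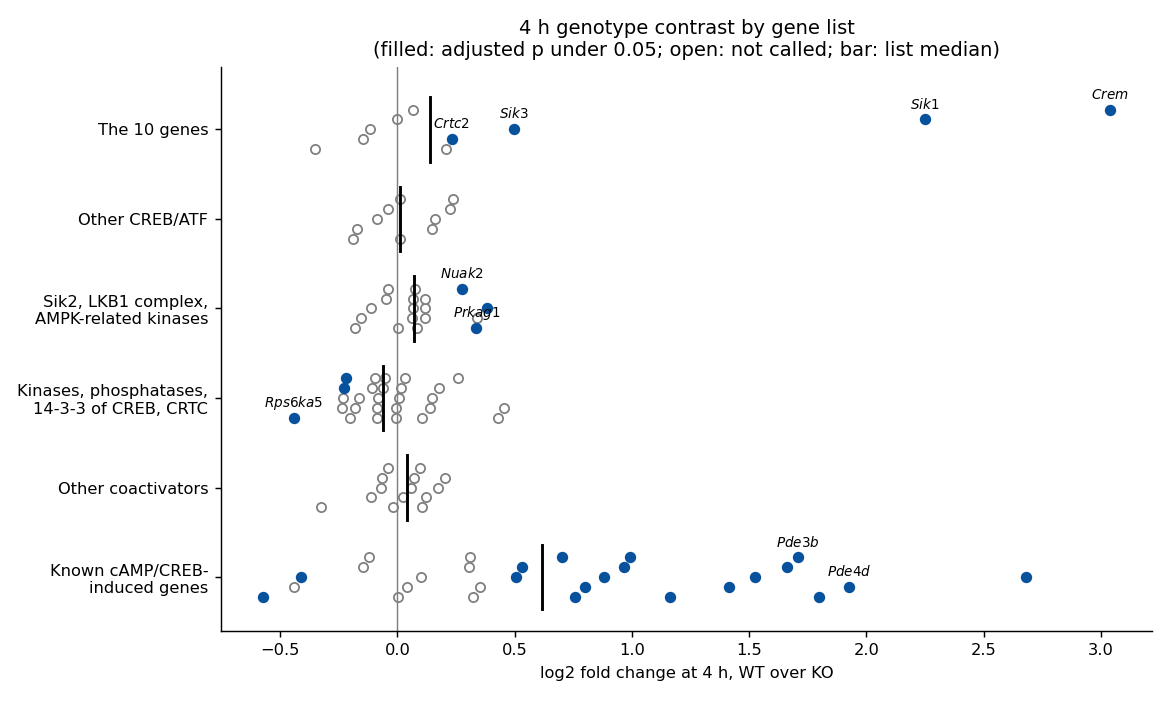
Genotype contrast at 4 h, as log2 fold change of WT over KO, for the tested genes of each list. Each point is a gene, filled points were called, bars are list medians, and offsets within a list only separate points. The median of the cAMP- or CREB-induced genes is 0.62, and the medians of the other pathway lists lie between -0.06 and 0.07. The lists were chosen with earlier results of these data known.

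For each of the 10 genes called in the interaction, the genes with the nearest profile were found as those with the smallest root mean square difference of log2 CPM, centred on each gene's mean, over the 12 libraries. Nearest to *Crem* were *Litaf* (0.33), the costimulatory ligand gene *Cd86* (0.38) and *Gprc5a* (0.4). *Cd86* means were 33.1 CPM in WT and 40.7 in KO at 0 h, and 166 and 37.4 at 4 h, whereas *Gprc5a* was at 1.74 CPM in WT 4 h and lower in the other groups. Nearest to *Sik1* were *Zyx* (0.32), *Armc9* (0.34) and *Kctd12* (0.41). *Zyx*, which encodes the focal adhesion protein zyxin, had means of 52.7 CPM in WT and 50.1 in KO at 0 h, and 82.2 and 27.8 at 4 h. The nearest genes were *Sltm* (0.046), *Ptk2b* (0.047) and *Chd9* (0.048) for *Creb1*, and *Tceb1* (0.15), *Alyref2* (0.17) and *Cno* (0.17) for *Atf1*. These distances are a description, and the neighbours were picked from all genes in the fit of 12 libraries.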

How the data were processed

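The authors aligned single-end reads to mm10 with STAR, counted reads per gene with HTSeq and tested them with DESeq2. Tool versions, gene annotation and strand setting are not given in the sources used here. The deposited values are raw read counts per gene in 2 tables, one for each time, with 13269 and 13142 genes, of which 12837 are in both. Each table holds no gene with fewer than 10 counts in all. *Rn45s*, a ribosomal RNA row, was kept. Libraries of a group differed by more than counting noise (chi-square per degree of freedom 2.00 to 9.88), so none was counted as a repeat of another.

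Counts were tested in R 4.3.3 with edgeR 4.0.16 (TMM, filterByExpr, quasi-likelihood test, Benjamini-Hochberg adjustment over all genes). Genotype contrasts were fitted within a time on 6 libraries, and culture changes and the interaction on 12 libraries over the genes in both tables. SE is the absolute log2 fold change divided by the square root of F. Log2 CPM used a prior count of 2. Depth sets the precision of low genes. The scripts were tested on simulated data. Alternatives were DESeq2 1.42.0, other scalings, no filter, other sets of libraries or genes, a replicate block and leaving out each library. Lengths came from GENCODE M21 and promoter windows from RefSeq GRCm38.p6.

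The members and lists were chosen with earlier results of these data known. Named from each list were the genes called in the interaction, or else in the genotype contrast at 4 h, at most the 6 of smallest p. For each member called in the interaction the 3 nearest profiles were named.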

Additional observations from a re-analysis of the deposited data

Results flagged for a closer look

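The culture change differed between WT and KO by the edgeR interaction test (adjusted p under 0.05) for 14 of the genes reported here. Values are the log2 culture change in WT minus that in KO. Of the 10 pathway genes, the differences were 3.15 for *Crem*, 2.24 for *Sik1*, -0.32 for *Creb1* and -0.91 for *Atf1*. For *Gpr174*, the targeted gene, the difference was -0.47, and its KO libraries rose from 73.4 to 76.7 CPM at 0 h to 105 to 118 CPM at 4 h. Among the cAMP- or CREB-induced genes it was 2.09 for *Pde4d*, 1.41 for *Pde3b*, 0.93 for *Junb*, 0.83 for *Ier2*, 0.58 for *Per1*, 0.41 for *Pde4b* and -0.56 for *Bcl2*. Among the regulators it was -0.57 for *Rps6ka5* and -0.47 for *Ppp3r1*.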

How the results depend on the processing

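The count of the 10 genes called was 4 in the interaction under every alternative run, 3 to 5 in the genotype contrast at 4 h, 7 to 9 in WT culture and 4 to 5 in KO culture. At 0 h it was 0 with DESeq2 and 0 to 1 with a library left out. Over all genes, 112 were called at 0 h, against 26 and 55 when replicate 1 or 3 of KO 0 h was left out and 50 and 59 when replicate 2 or 3 of WT 0 h was, and 161 without replicate 1 of WT 0 h. At 4 h 1212 were called, against 776 without KO 4 h replicate 1, and 1361 were called when replicate 2 of WT 4 h was left out. The cause of these moves was not tested.

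Signs turned only for values near 0 that were not called. On library totals the log2 fold changes were -0.032 for *Sik1* and -0.0058 for *Ep300* at 0 h, 0.036 for *Nuak2* and 0.061 for *Ep300* in WT culture, and 0.058 for both *Ppp3r1* and *Creb1* and 0.078 for *Ep300* in KO culture. With a library left out the ranges were -0.00032 to 0.14 for *Crtc1*, -0.076 to 0.092 for *Sik1* and -0.022 to 0.063 for *Ep300* at 0 h, -0.026 to 0.023 for *Ep300* at 4 h, -0.11 to 0.13 for *Junb* in WT culture, -0.13 to 0.17 for *Atf1* and -0.066 to 0.028 for *Ep300* in KO culture, and -0.11 to 0.098 for *Sik2* and -0.076 to 0.018 for *Ep300* in the interaction.

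Without length scaling the *Crem* share was 5.11% in KO 0 h, 4.80% in KO 4 h and 32.1% in WT 4 h. On the longest transcript, an alternative chosen after seeing the data (as were both other lengths for the *Sik1* share), it was 8.34%, 7.73% and 45.1%, and 5.96% in WT 0 h.

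Same-numbered libraries of WT and KO did not deviate together (correlations of -0.099 to 0.073). Those of 0 h and 4 h within a genotype ran from -0.04 to 0.152. The numbers were not taken as pairs in the tests reported. With 3 mice per genotype for both times, 0 h and 4 h libraries would share mice, but which ones do is not stated. The tests of culture and of the interaction may therefore treat paired libraries as independent. As a hint from the data, each WT library correlated best with its own number at the other time, and replicate 1 of KO did not. In the genotype contrasts the replicate block joined WT and KO libraries of the same number, which are from different mice. For culture and the interaction it joined 0 h and 4 h libraries of the same number within a genotype. A replicate block gave -0.0023 for *Sik1* at 0 h and called 842 genes in the interaction, against 739, and 1062 at 4 h. It added calls for *Atf1* at 4 h (edgeR adjusted p = 0.0082), *Rps6ka5* in WT culture and *Prkag1* in the interaction, and lost those of *Camk2d* and *Ppp3cc* at 4 h and *Nuak1* in KO culture. The cause was not tested.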
